A study of Homo sapiens with 6 samples.

Results

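Cholesterol synthesis was examined through 7 genes selected by name, 6 enzymes in pathway order (HMGCS1, IDI1, FDFT1, SQLE, LSS and DHCR7) and SREBF2, the gene of the transcription factor that drives them. All 7 had a row among the 21494 genes of the count table, and all 7 were among the 16756 genes that passed the filter on low counts. The comparison is between 3 libraries labelled G361, genotype WT, that carried a control shRNA (Control sh) and 3 libraries labelled G361, genotype DCAF1 Knockdown, that carried an shRNA targeting the DCAF1 product, VprBP (VprBP sh). G361 is a human melanoma line, and the study's methods describe lentiviral pLKO.1 vectors, a single shRNA sequence against the VprBP coding region and selection of the infected cells in puromycin. How the Control sh cells were infected or selected is not stated there in the same detail. The same labels give LD611 as the source of all 6 samples, so the labels do not agree on the cells, and each fold change below compares the libraries as labelled. Nothing says that the replicates came from separate cultures, so p-values measure the spread between these samples, which may be technical. None of the 7 genes takes up cholesterol, and uptake genes are described below as a separate list.

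Cells make cholesterol from acetyl-CoA through mevalonate, the isoprenoid diphosphates, squalene and lanosterol. The whole route is under feedback, in which SREBP2, the product of SREBF2, stays in the endoplasmic reticulum with its escort SCAP while sterols are plentiful, held there by INSIG proteins. When sterols run low it moves to the Golgi, is cut, and the freed fragment acts in the nucleus on the genes of the enzymes and on SREBF2 itself. Cells grown with serum, as in the methods of the study, can also take cholesterol from lipoproteins.

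The promoters of the members are shown because this regulator binds beside the starts of its targets. RefSeq windows on GRCh38.p14, which run from 250 bases before to 50 bases after a transcription start, were found for 5 of the 7 genes, HMGCS1, IDI1, LSS, DHCR7 and SREBF2, but not for FDFT1 and SQLE. Where a gene had several windows, the one whose start was nearest to the 5′ end of the gene in the count table was used. Each was searched on both strands for TCACNCCAC, the core of a sterol regulatory element, CCAAT, bound by NF-Y, GGGCGG, bound by Sp1, and CANNTG, the E-box, and the capitals below mark every match. The SREBF2 window is chr22:41832855-41833154 on the plus strand, that of HMGCS1 is chr5:43313363-43313662 on the minus strand and that of IDI1 is chr10:1049070-1049369 on the minus strand, each printed 5′ to 3′ on the strand of the gene.
SREBF2: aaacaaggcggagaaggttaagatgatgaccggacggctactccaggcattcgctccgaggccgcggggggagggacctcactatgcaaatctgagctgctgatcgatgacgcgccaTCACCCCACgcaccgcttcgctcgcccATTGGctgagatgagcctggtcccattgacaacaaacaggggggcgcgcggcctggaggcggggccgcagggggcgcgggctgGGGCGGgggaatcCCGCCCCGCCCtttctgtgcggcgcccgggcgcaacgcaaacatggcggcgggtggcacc
HMGCS1: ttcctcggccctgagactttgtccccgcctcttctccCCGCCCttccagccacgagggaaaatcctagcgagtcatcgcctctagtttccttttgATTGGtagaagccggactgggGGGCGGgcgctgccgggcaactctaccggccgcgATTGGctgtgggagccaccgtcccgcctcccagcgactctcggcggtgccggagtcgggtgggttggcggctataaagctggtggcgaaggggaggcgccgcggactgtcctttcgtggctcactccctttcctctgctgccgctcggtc
IDI1: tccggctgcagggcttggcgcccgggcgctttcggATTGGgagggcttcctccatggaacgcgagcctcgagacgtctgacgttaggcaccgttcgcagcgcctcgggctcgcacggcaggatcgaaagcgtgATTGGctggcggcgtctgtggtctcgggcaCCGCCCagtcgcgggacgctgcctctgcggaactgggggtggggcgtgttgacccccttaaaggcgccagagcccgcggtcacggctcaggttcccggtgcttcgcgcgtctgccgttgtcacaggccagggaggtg

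The letters of the sterol regulatory element occurred in 1 of the 5 windows, that of SREBF2, as TCACCCCAC at -133 to -125 relative to the start, and in 1.13% of the 35116 promoter windows of the RefSeq table. CCAAT occurred in 4 of the 5 windows against 34.6% of all windows, on the opposite strand (ATTGG) in each of the printed ones. GGGCGG occurred in 4 of the 5 against 45% of all, with 2 of the 3 SREBF2 matches overlapping by 1 base. An E-box occurred in 2 of the 5, LSS and DHCR7, against 68.7% of all. The DHCR7 window starts from a site 3825 bases from the 5′ end of that gene in the count table, so it covers another start. These matches are letters in a short window and no measure of binding. A window without a match does not show that an element is absent, since other spellings and sites outside the window were not searched.

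Total counts per sample ran from 18195949 to 26883948. DCAF1 itself had 789, 961 and 830 normalized counts in Control sh replicates 1, 2 and 3 and 753, 502 and 477 in VprBP sh (log2 fold change -0.58 ± 0.17 SE, adjusted p = 0.0125 by the quasi-likelihood test of edgeR). VprBP sh replicate 1 thus lay just below the lowest Control sh sample, and the fold change did not reach 2. The adjusted p of DCAF1 was 0.0851 with scaling by library size alone (log2 fold change -0.37) and 0.0839 with replicates 2 and 3 of each group summed, both in edgeR. The mitochondrial share of counts was 1.96% to 1.98% for Control sh libraries and 4.10% to 4.48% for VprBP sh libraries. Of 7 melanocyte-lineage markers, 4 had a row and 2 passed the filter, and the list summed to 197 to 234 normalized counts (Control sh) and 242 to 305 (VprBP sh). Of these, MLANA and TYRP1 had at most 5 counts in any sample, and TYR, DCT and SOX10 had no row in the table analysed. Of 7 urothelial markers, 6 had a row and 5 passed the filter, and the list summed to 92525 to 103939 and 24142 to 27532 normalized counts. Most of these sums came from KRT5 (mean 64337 for Control sh, 3453 for VprBP sh) and KRT7 (34733 and 21360). UPK1A had at most 5 counts in any sample, and UPK3A had no row in the table analysed. UPK1B, with a Control sh mean of 643, was at 0 in every VprBP sh sample, and UPK2 had means of 209 and 43.1. GATA3 went the other way, with 0 to 7 counts per Control sh library but a VprBP sh mean of 1513 normalized counts (log2 fold change 9.0). Whether the libraries of both groups came from the same cells was not tested, nor was the part of these shifts in the results below. In bulk RNA, a smaller share of cells that express a gene and less of its RNA per cell cannot be told apart.

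RNA of all 7 genes was lower in VprBP sh, by very different amounts along the pathway. HMGCS1, which makes HMG-CoA, and SQLE, which oxidizes squalene, fell 8.48-fold and 7.95-fold, IDI1 3.03-fold and DHCR7 2.43-fold. FDFT1, LSS and SREBF2 were 1.69-fold, 1.37-fold and 1.61-fold lower and did not reach the 2-fold cutoff. Thus 4 of the 7 genes were called (adjusted p under 0.05 and fold change over 2), all 4 of them lower, where 46.4% of all genes tested were called, 22% as lower and 24.5% as higher. All 7 had an adjusted p under 0.05 on the lower side, as did 36% of all genes tested, and in all 7 the values of the groups did not overlap, as in 79.5% of all genes tested. The median log2 fold change of the 7 was -1.28, beside 0.08 for all genes tested. The 7 genes were chosen with earlier results of these data known, so setting them beside all genes is no independent test.

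**Figure D1:**
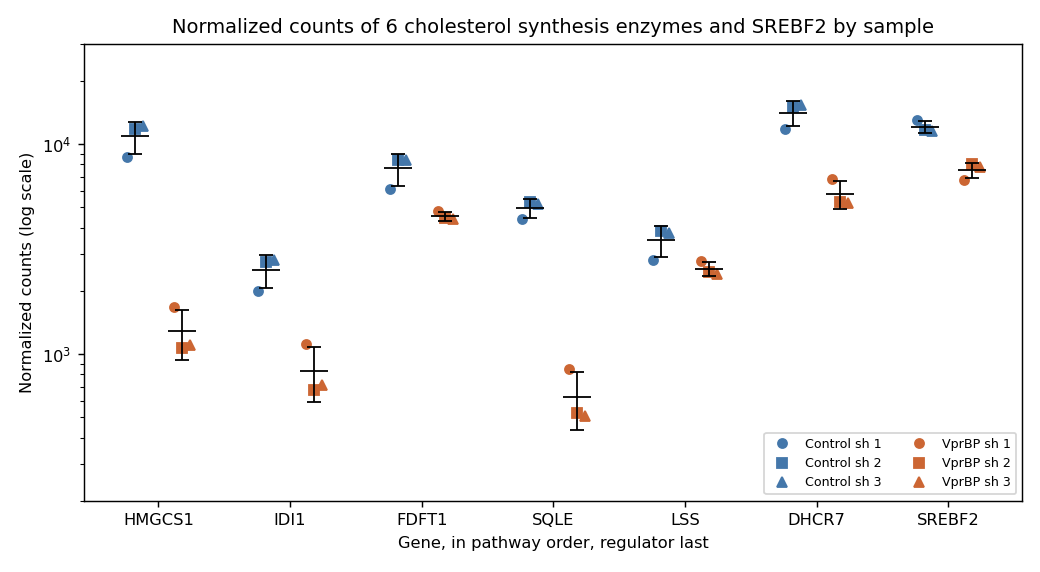
Normalized counts on a log axis for the 7 genes in the 3 Control sh (blue) and 3 VprBP sh (orange) samples, with circles, squares and triangles for replicates 1, 2 and 3 and black bars for mean ± SD. HMGCS1 and SQLE show the widest gaps between the groups, and LSS the narrowest, with 2814 in the lowest Control sh sample and 2772 in the highest VprBP sh sample.

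HMGCS1 (ENSG00000112972.15, hg38 chromosome 5 from 43287470 to 43313512, minus strand) encodes the cytosolic synthase that joins acetoacetyl-CoA and acetyl-CoA into HMG-CoA, a precursor of mevalonate. The Control sh libraries held 7545, 10962 and 12968 of its reads as counted, the VprBP sh libraries 1519, 1039 and 1454. Normalized counts were 8657, 11797 and 12171 against 1679, 1069 and 1103. The lowest Control sh sample was thus far above the highest VprBP sh sample. The means were 10875 ± 1930 and 1284 ± 343 (SD, n = 3), a log2 fold change of -3.08 ± 0.20 SE (adjusted p = 5.72e-07 from edgeR). Its 95% interval corresponds to a level 6.20-fold to 11.6-fold lower.

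IDI1 (ENSG00000067064.13, chromosome 10 from 1039152 to 1049119, minus strand) encodes the isomerase that interconverts isopentenyl and dimethylallyl diphosphate, the building blocks of all isoprenoids. Normalized counts were 1994, 2758 and 2810 in Control sh and 1112, 678 and 712 in VprBP sh. The VprBP sh samples were lower, with replicate 1 nearest to the controls. The means were 2521 ± 457 and 834 ± 241 (SD, n = 3), a log2 fold change of -1.60 ± 0.20 SE (adjusted p = 5.58e-05 from edgeR). IDI2-AS1, which overlaps IDI1 on the opposite strand in GENCODE 44, had mean normalized counts of 33.2 and 29.3 and was not called.

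FDFT1 (ENSG00000079459.13, chromosome 8 from 11795573 to 11839304, plus strand) encodes squalene synthase, which commits farnesyl diphosphate to sterols. It had 6133, 8388 and 8445 normalized counts in Control sh and 4790, 4428 and 4398 in VprBP sh. The groups were close without overlapping. The log2 fold change was -0.75 ± 0.12 SE (adjusted p = 0.000341 from edgeR), from 7655 ± 1319 to 4539 ± 218 (SD, n = 3).

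SQLE (ENSG00000104549.12, chromosome 8 from 124998497 to 125022283, plus strand) encodes squalene epoxidase, the next enzyme and a rate-limiting step of the sterol branch. The counts were 3824, 4936 and 5551 for Control sh, but 769, 511 and 666 for VprBP sh. The normalized values were 4388, 5312 and 5210 against 850, 526 and 505, so that each VprBP sh sample lay far below each control. The means were 4970 ± 507 and 627 ± 193 (SD, n = 3), and the log2 fold change was -2.99 ± 0.19 SE (adjusted p = 5.73e-07 from edgeR). No other gene of GENCODE 44 overlaps SQLE.

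LSS (ENSG00000160285.15, chromosome 21 from 46188141 to 46228824, minus strand) encodes lanosterol synthase, which closes squalene epoxide into the sterol ring system. Its normalized counts were 2814, 3877 and 3777 in Control sh and 2772, 2462 and 2405 in VprBP sh. The highest VprBP sh sample nearly met the lowest control. The means were 3489 ± 587 and 2546 ± 198 (SD, n = 3), with a log2 fold change of -0.46 ± 0.13 SE and a 95% interval from -0.74 to -0.17 (adjusted p = 0.00812 from edgeR). The adjusted p of LSS rose to 0.114 in edgeR with scaling by library size alone and to 0.0882 with replicates 2 and 3 of each group summed as 1 sample.

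DHCR7 (ENSG00000172893.18, chromosome 11 from 71428193 to 71452868, minus strand) encodes the reductase that makes cholesterol in the last step of the Kandutsch-Russell branch. It had the highest counts of the 6 enzymes, 11853, 15077 and 15312 normalized counts in Control sh and 6823, 5282 and 5260 in VprBP sh. Each VprBP sh sample was well below the controls. The means were 14081 ± 1933 and 5788 ± 896 (SD, n = 3), a log2 fold change of -1.28 ± 0.14 SE (adjusted p = 1.64e-05 from edgeR). A long noncoding RNA gene on the opposite strand, ENSG00000254682, overlaps DHCR7 and had mean normalized counts of 375 in Control sh and 50.8 in VprBP sh. The sources used here do not say whether counting used strand, so reads of this gene and of DHCR7 cannot be told apart with certainty.

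SREBF2 (ENSG00000198911.12, chromosome 22 from 41833079 to 41907307, plus strand) had 13034, 11728 and 11488 normalized counts in Control sh and 6778, 8000 and 7769 in VprBP sh. The controls were higher, and replicate 1 was the extreme sample of both groups. The means were 12083 ± 832 and 7516 ± 649 (SD, n = 3), with a log2 fold change of -0.68 ± 0.09 SE (adjusted p = 9.44e-05 from edgeR). SREBF2-AS1 on the opposite strand had at most 26 counts in a sample and was not called. SREBF1, the related gene whose products act mainly on fatty acid synthesis, had 4651, 4731 and 4228 normalized counts in Control sh and 4212, 6702 and 6604 in VprBP sh, which overlapped (log2 fold change 0.36 ± 0.16 SE, adjusted p = 0.0622 from edgeR, or 0.00703 with library size alone).

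For each of the 7 genes alone, normalized counts compared by a two-sided exact permutation test gave p = 0.1, the smallest value that 3 samples against 3 can give. Ordered by fold change, the 95% intervals of HMGCS1 and SQLE overlapped, as did those of IDI1 and DHCR7, those of DHCR7 and FDFT1, and those of FDFT1, SREBF2 and LSS. The interval of IDI1, from -2.05 to -1.15, did not reach that of SQLE, from -3.43 to -2.55.

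Ratios of genes within a sample, which no scaling between samples can move, showed how unevenly the steps differed. LSS over SQLE, which are consecutive enzymes, was 0.641 to 0.730 for Control sh and 3.26 to 4.75 for VprBP sh, a 5.97-fold rise of the ratio. SQLE over FDFT1, the step before, went from 0.617 to 0.715 in Control sh down to 0.115 to 0.178 in VprBP sh. FDFT1 and LSS thus flank an enzyme whose RNA differed far more than theirs.

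IDI1 over HMGCS1 was 0.230 to 0.234 for Control sh and 0.635 to 0.662 for VprBP sh, the tightest ratio within each group. FDFT1 over IDI1 was 3.00 to 3.07 for Control sh and 4.31 to 6.52 for VprBP sh. DHCR7 over LSS was 3.89 to 4.21 and 2.15 to 2.46. SREBF2 over HMGCS1 was 0.944 to 1.51 and 4.04 to 7.48, so that the RNA of the regulator rose 5.32-fold relative to that of this target. In all 6 pairs the groups did not overlap, and the exact two-sided permutation test gave p = 0.1 for each, the smallest possible (0.1 after adjustment over the 6 pairs).

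**Figure D2:**
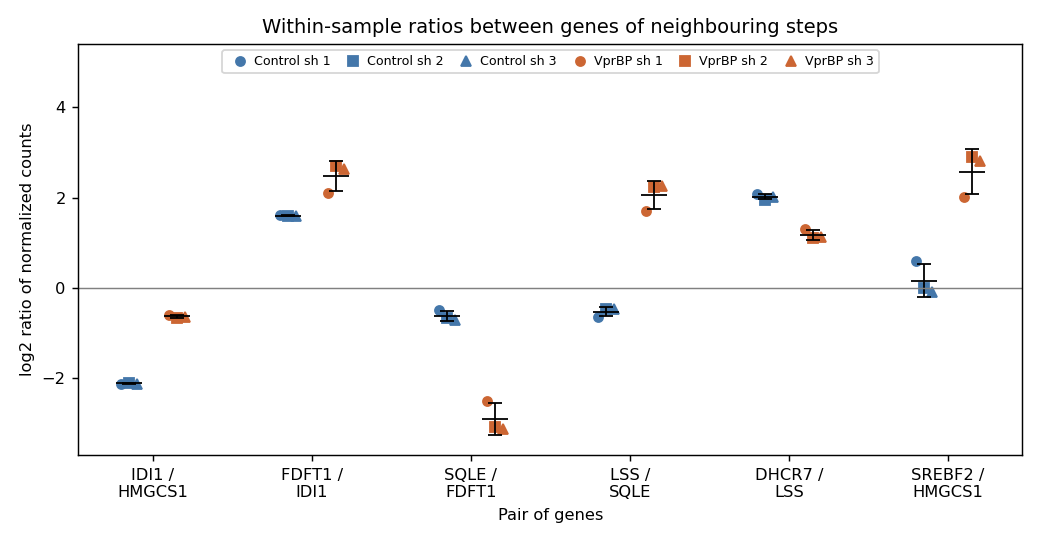
The log2 ratio of normalized counts (+1) of a later to an earlier gene for 6 pairs, with Control sh in blue, VprBP sh in orange, a symbol per replicate and black bars for mean ± SD. LSS over SQLE moves from -0.52 to 2.06 on average, and SQLE over FDFT1 from -0.61 to -2.89.

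Levels were compared between genes only per length, as CPM (computed from total counts) per kilobase of the union of exons. In Control sh DHCR7 was highest at 87.3 ± 12.8 (SD, n = 3), followed by HMGCS1 (70.0 ± 13.1), FDFT1 (64.3 ± 11.7), SREBF2 (63.9 ± 3.7), SQLE (49.2 ± 5.5), IDI1 (25.04 ± 4.78) and LSS (20.6 ± 3.7). Among these, the means of HMGCS1, FDFT1 and SREBF2 differed by less than their largest SD, as did those of IDI1 and LSS. Within each Control sh sample, however, IDI1 was above LSS, and HMGCS1 was above FDFT1 with this length. In VprBP sh SREBF2 (46.0 ± 3.7), FDFT1 (44.1 ± 2.4) and DHCR7 (41.6 ± 6.7) lay together, and LSS followed at 17.4 ± 1.5. IDI1 (9.60 ± 2.85), HMGCS1 (9.57 ± 2.62) and SQLE (7.20 ± 2.27) were lowest, with means that differed by less than their largest SD. Within each VprBP sh sample, SQLE was nevertheless below both IDI1 and HMGCS1. HMGCS1 and SQLE, which stood above LSS in every Control sh sample, stood below it in every VprBP sh sample. With the longest protein-coding transcript as the length, DHCR7 was highest in both groups, while LSS stayed above IDI1, HMGCS1 and SQLE in VprBP sh.

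Replicate 1 differed from the other replicates in the 6 enzymes, in opposite directions in the 2 groups, a pattern chosen after its values were seen. In Control sh replicate 1 was the lowest of the 3 samples for all 6 enzymes, by 0.26 (SQLE) to 0.48 (IDI1) on the log2 scale below the mean of the others. In VprBP sh replicate 1 was the highest for all 6, by 0.12 (FDFT1) to 0.72 (SQLE). SREBF2 went the other way in both groups, 0.17 above in Control sh and 0.22 below in VprBP sh. Among the 16 other genes of the wider synthesis list, 12 showed both features, beside 21.7% of all genes tested. Total counts of replicate 1 were the lowest of each group.

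Without replicate 1 of both groups, an alternative added after the data were seen, the log2 fold changes were -3.46 for HMGCS1, -3.35 for SQLE, -1.998 for IDI1, -1.53 for DHCR7, -0.93 for FDFT1 and -0.65 for LSS, each further from 0 than with all samples, while SREBF2 moved closer to 0, to -0.56. The same 4 genes were called.

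**Figure D3:**
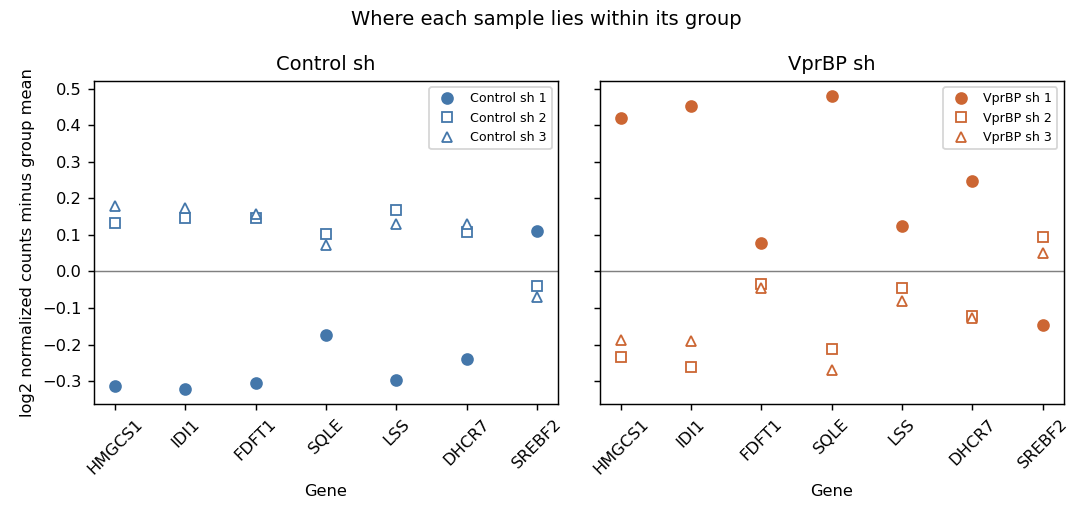
The log2 normalized counts (+1) of each sample minus its group mean, by gene, with Control sh left and VprBP sh right and filled circles for replicate 1. The filled circles of the 6 enzymes lie below 0 in Control sh and above 0 in VprBP sh, and those of SREBF2 lie on the other side.

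The rest of the route did not move as one. Of 22 cholesterol synthesis genes, all of them tested and the 6 described enzymes included, 6 were called lower, 6 higher and 10 not called. The median log2 fold change of the 22 was -0.47. The lower ones included HMGCS1, SQLE, IDI1 and DHCR7 with MSMO1, the sterol methyl oxidase (3217 ± 229 to 811 ± 257 normalized counts, SD, n = 3, log2 fold change -1.99). Among the 16 genes outside the described enzymes, 2 were lower and 6 higher, where all genes tested gave 22% and 24.5%. The median log2 fold change of these 16 was 0.005, beside 0.08 for all genes tested.

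The genes called higher included ACAT2, which makes the acetoacetyl-CoA that HMGCS1 uses (353 ± 17 to 1465 ± 258 normalized counts, log2 fold change 2.05), and PMVK and MVD, the phosphomevalonate kinase and the mevalonate diphosphate decarboxylase (1.49 and 1.16). They also included SC5D, the desaturase whose product DHCR7 reduces (1010 ± 9 to 3126 ± 325, 1.63), the decarboxylating dehydrogenase NSDHL (1.19) and the reductase TM7SF2 (1.08), which was not called under TMM or DESeq2 scaling or without Control sh replicate 3. MVD was not called without replicate 1 of both groups, and MVD, NSDHL and TM7SF2 were not called in the test against a 2-fold change. MVK, the mevalonate kinase, which acts before PMVK, had a log2 fold change of -0.30 (adjusted p = 0.108 from edgeR). Thus HMGCS1, IDI1 and DHCR7, whose RNA was lower, each directly followed an enzyme whose RNA was higher, ACAT2, MVD and SC5D in that order.

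**Figure D4:**
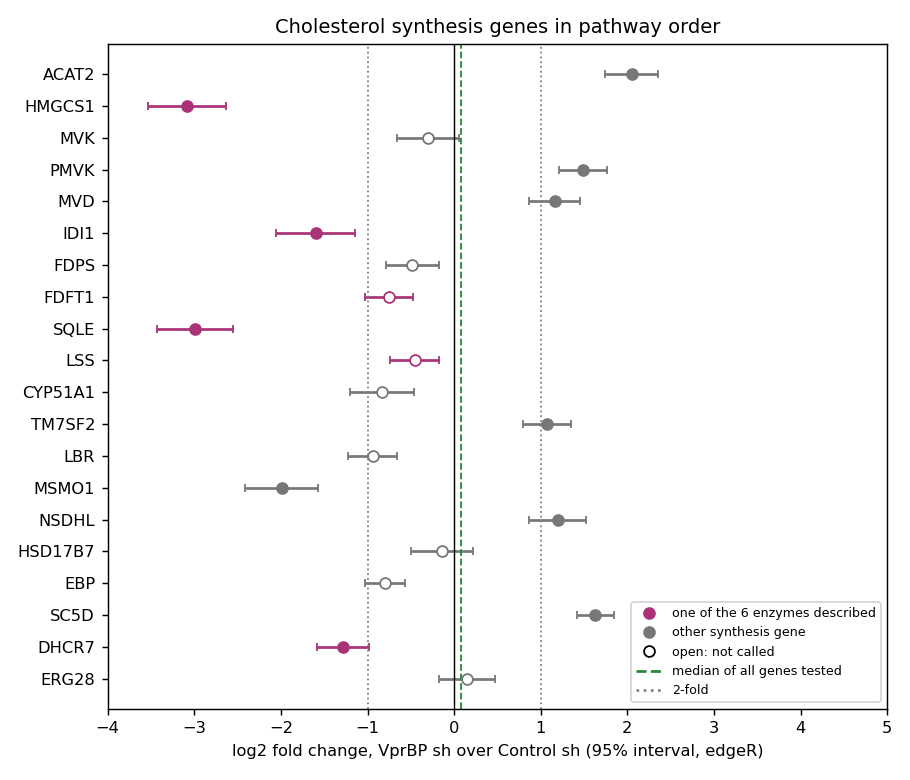
The log2 fold change of VprBP sh over Control sh with its 95% interval from edgeR for the reported genes of the synthesis list in pathway order, from ACAT2 at the top. Filled points passed both cutoffs, purple points are the 6 enzymes, dotted lines mark 2-fold and the dashed line the median of all genes tested (0.08). Filled points stand on both sides, from -3.08 for HMGCS1 to 2.05 for ACAT2.

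Of 17 genes of sterol sensing and regulation, 3 were called lower, 1 higher and 13 not. INSIG1, the retention protein and a target of SREBP2, had 1734, 1896 and 1851 normalized counts in Control sh and 682, 510 and 483 in VprBP sh (log2 fold change -1.71 ± 0.13 SE, adjusted p = 2.02e-06 from edgeR). ERLIN1 and the ubiquitin ligase RNF145 were also lower (-1.35 and -1.27), and NR1H3, the gene of the oxysterol receptor LXR alpha, was higher (1.84). The escort SCAP (0.47) and the proteases of the Golgi MBTPS1 (0.39) and MBTPS2 (-0.55), which cut SREBP2, did not reach 2-fold.

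Of 18 uptake and traffic genes, 8 were called lower and 2 higher, with a median of -0.48. The largest decreases were in the receptors LRP1 (-3.82) and SCARB1 (-2.89), in TMEM97 (-2.27) and in NPC1, which exports cholesterol from lysosomes (-2.08). NPC2, the partner of NPC1, also fell (-1.84), as did the sterol carrier STARD4 (-1.35). The sterol transfer gene GRAMD1B (2.48) and MYLIP, a ubiquitin ligase gene (1.37), rose.

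Of 12 genes of efflux and esterification, 10 had a row and 7 were tested, of which 4 were lower and 2 higher. APOE went from 1144 ± 41 to 13.7 ± 9.5 normalized counts (SD, n = 3), and LCAT (log2 fold change -3.56), the transporter ABCA1 (-1.59) and the esterifying enzyme SOAT1 (-1.17) were lower. ABCA1 was not called without replicate 1 of both groups, nor SOAT1 with library size alone. In the test against a 2-fold change, 3 genes of this list were called lower. The transporter ABCG1 (2.83) and the sterol hydroxylase CYP27A1 (2.67) were higher. Among 13 tested fatty acid synthesis genes of 14, 5 were lower and 1 higher. The desaturases FADS1 (3558 ± 343 to 10.2 ± 4.6 normalized counts) and FADS2 (2651 ± 195 to 47.3 ± 10.8) and the elongase ELOVL6 (811 ± 142 to 41.2 ± 6.2) were the lowest relative to Control sh, with MID1IP1 lower by a log2 fold change of -1.36, while ACACB rose (1.60). FASN, the fatty acid synthase itself, had 18304 ± 1902 and 34417 ± 541 normalized counts (0.91, not called, but called higher with library size alone at 1.12).

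Of 13 genes of the branches that leave the pathway before squalene, 5 were called higher, 1 lower and 7 not, with a median of 0.69. SRD5A3 (2.53) and DHDDS (1.43), of dolichol synthesis, PGGT1B (1.83), a prenyltransferase subunit, and GGPS1 (1.17), which makes geranylgeranyl diphosphate, were higher. FNTA, a subunit of the farnesyltransferase, was lower (-1.14), but was not called with library size alone or in the test against a 2-fold change. That test called 4 genes of this list higher and 0 lower. Of the 6 lists, those of synthesis, uptake and efflux were called at 54.5%, 55.6% and 85.7% of tested genes, those of fatty acid synthesis and the branches at 46.2% each and that of regulation at 23.5%, beside 46.4% of all genes.

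**Figure D5:**
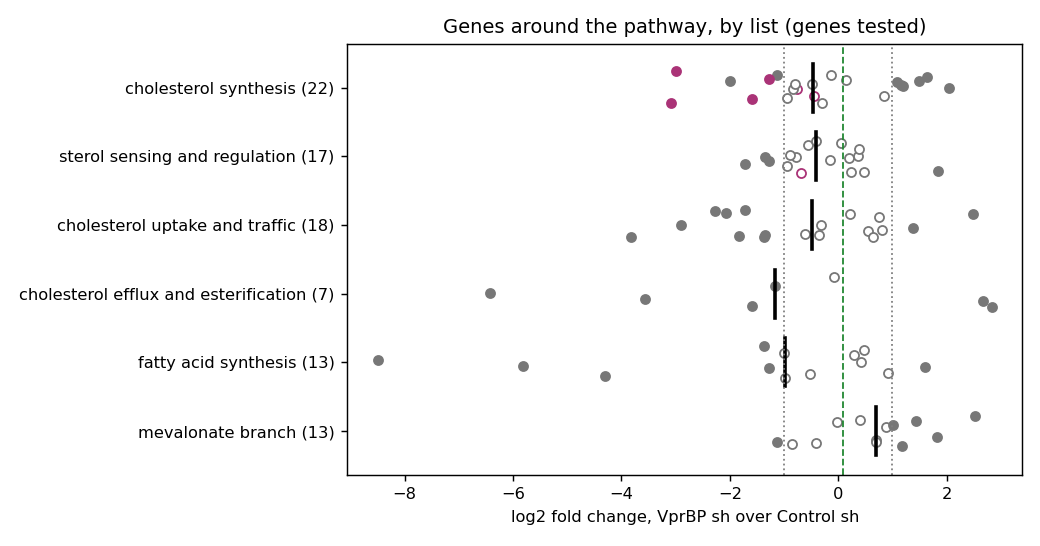
The log2 fold change of each tested gene in 6 lists around the pathway, with the number tested in parentheses, filled points for called genes, purple for the 7 genes described, black bars for list medians and the dashed line for the median of all genes tested. Every list holds called genes on both sides, and the branch list alone of the 6 has a median above that of all genes, 0.69 against 0.08.

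To find the most similar patterns, each gene's 6 values of log2(normalized counts + 1) were taken relative to its Control sh mean, and Euclidean distances were computed over the 16756 genes. HMGCS1 and SQLE were each other's nearest gene of all genes tested, at a distance of 0.24, although they lie on different chromosomes and several steps apart. The next after SQLE for HMGCS1 were GCSAM (0.30) and CABYR (0.32), and ENSG00000254602 was at 0.31 from SQLE. No other member had a member among its nearest 3 genes, although FDPS, the enzyme before FDFT1, was the third for LSS (0.12) after PAICS (0.10) and C6orf120 (0.11). The nearest genes were SUN3 (0.22), DIAPH3 (0.31) and NCOA7 (0.31) for IDI1, SLC25A28 (0.10), FASTKD5 (0.12) and SLC9A7P1 (0.12) for FDFT1, TPX2 (0.11), VPS37A (0.14) and CKAP2L (0.14) for DHCR7, and TENT4A (0.05), BAIAP2L1 (0.06) and CDC42BPB (0.08) for SREBF2. The distance is set mostly by the difference between the groups and says nothing of shared control.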

How the data were processed

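RNA-seq of 3 Control sh and 3 VprBP sh samples was analysed, grouped and numbered by their titles. According to the study's methods, the authors aligned single-end reads to hg38 with STAR and quantified genes in Partek Flow. The deposited values are estimated counts, not normalized or pooled (59.4% whole), and every gene has a sum of at least 10. They were rounded, since the design allowed for estimated counts, and tested with edgeR 4.0.16 in R 4.3.3 (quasi-likelihood test, upper quartile factors at 0.75, its filter at a minimum of 10 counts, no replicate block, Benjamini-Hochberg over all 16756 genes tested). Genes were called at an adjusted p under 0.05 and a fold change over 2. The test stands in for Partek's Gene Specific Algorithm. At the same cutoffs the study reports far fewer genes than the 7778 called here, and the reason was not tested. SE is the log2 fold change over the root of F. Levels per length are CPM per kilobase of exon, computed from these counts. Ratios used log2(normalized counts + 1) in Python 3.11.15 with scipy 1.17.1. Alternatives used TMM, library size, DESeq2 1.42.0, limma-voom 3.58.1, other filters, a replicate block, a test against 2-fold and omitted or summed replicates. Tests were tried on simulated data in which far fewer genes changed than were called here, equally in both directions. That trial therefore does not show how the tests perform under shifts this broad. Lengths and overlaps came from GENCODE 44, promoters from RefSeq. Intervals cover the spread between samples. Named genes were the 7 members, DCAF1 and INSIG1, related genes, the 3 nearest profiles of each member and, per list, up to 4 called genes each way (largest change, higher group mean 100 normalized counts or more). Members and lists were chosen with earlier results of these data known, and the marker genes and MVD, MVK, TM7SF2, FDPS, SCAP, MBTPS1, MBTPS2, NPC2, STARD4 and FASN were named outside that rule, after their values were seen. Some genes that this rule or the lists hold are counted but not reported here.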

Additional observations from a re-analysis of the deposited data

How the results depend on the processing

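The fold changes of the 7 genes were recomputed under 16 alternatives each. All 112 values lay below 0, and the same 4 of 7 genes passed both cutoffs together throughout, also in the test against a 2-fold change. The adjusted p alone was less stable: that of LSS rose above 0.05 with library size alone (0.114) and with replicates 2 and 3 summed (0.0882), and those of FDFT1, LSS and SREBF2 were 1 in the test against 2-fold. Log2 fold changes ranged from -3.46 to -2.87 for HMGCS1, -3.35 to -2.78 for SQLE, -1.998 to -1.39 for IDI1, -1.53 to -1.07 for DHCR7, -0.93 to -0.54 for FDFT1, -0.81 to -0.47 for SREBF2 and -0.65 to -0.24 for LSS. The median of all genes was 0.08 (upper quartile), -0.01 (TMM), -0.04 (DESeq2) and 0.29 (library size). The synthesis list split into 6 higher and 6 lower, 5 and 7 with TMM or DESeq2, 7 and 5 with library size alone, 3 and 5 in the test against 2-fold, and 5 and 8 without replicate 1 of both groups.

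The number of all genes called changed from 7778 to 4690 with at least 10 counts in every sample, a filter that leaves 13103 genes. Counts of called list genes stayed within 1.5 times, with the synthesis list at 8 of 22 in the test against 2-fold. With the longest protein-coding transcript, length-scaled levels in Control sh and VprBP sh were 211 and 100.3 for DHCR7, 133 and 91.0 for FDFT1, 93.4 and 67.3 for SREBF2, 71.5 and 10.5 for SQLE and 30.5 and 25.7 for LSS, and in Control sh 86.7 for HMGCS1 and 31.9 for IDI1, a rise that follows from the shorter lengths.

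Deviations of same-numbered samples correlated at -0.06, 0.02 and -0.05 over 16756 genes for replicates 1, 2 and 3. Same-numbered samples thus shared no clear deviation over all genes. Such correlations cannot show whether samples of the same number were handled together. With the replicate block edgeR called 7686 genes and the same 4 members, with HMGCS1 at -3.10 on the log2 scale. Each step ratio kept its direction with pseudocounts of 0 and 10, without each sample and within same-numbered samples.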
